A study of Mus musculus with 2 samples.

Results

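The genes examined were 10 actin-nucleation genes of mouse back skin: 7 subunits of the Arp2/3 complex and 3 genes that act beside it, chosen by symbol from 31053 gene features. The subunits were Actr2 (ENSMUSG00000020152), Actr3 (ENSMUSG00000026341), Arpc1b (ENSMUSG00000029622), Arpc2 (ENSMUSG00000006304), Arpc3 (ENSMUSG00000029465), Arpc4 (ENSMUSG00000079426) and Arpc5 (ENSMUSG00000008475). The other genes were Diaph1 (ENSMUSG00000024456), Cttn (ENSMUSG00000031078) and Wasl (ENSMUSG00000029684). Each of the 10 symbols matched 1 feature. Single-cell RNA-seq with unique molecular identifiers (UMIs) was run on skin cells of 1 control mouse and 1 mouse in which miR-205 could be induced, both at postnatal day 53 and both carrying a K14-H2BGFP allele that labels keratin 14-expressing epithelium. In the inducible mouse a Krt14-driven doxycycline-dependent activator turned on a miR-205 transgene, so the transgene was directed to keratin 14-expressing epithelial cells. That mouse ate doxycycline chow for 4 days, from postnatal day 49. The labels conflict on the control, which is called untreated in its sample entry and doxycycline-fed in the shared protocol. The strain was given as C57BL/6, while per the study's methods the transgene was made in FVB and the control was a littermate. Sorted epidermal, hair follicle and dermal cells were mixed 3 to 5 to 2 before loading, so the shares of cell types follow the sort.

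Actin filaments need a nucleator to start. The Arp2/3 complex is built from the actin-related proteins Arp2 and Arp3 (Actr2, Actr3) and ARPC subunits, and it starts a new filament as a branch on the side of an existing one. ARPC2 and ARPC4 form the core that holds the complex to the mother filament, ARPC1 is a main contact for activators, ARPC3 links Arp3 to the rest, and ARPC5 joins ARPC1 to the core. N-WASP (Wasl) activates the complex downstream of the GTPase Cdc42, cortactin (Cttn) stabilises branches, and the formin mDia1 (Diaph1) makes unbranched filaments without the complex. In epithelial cells, actin networks shape the cell and carry contractile force, and the bulge and the hair germ beneath it hold the stem cells and progenitors of the hair follicle.

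Mature miR-205 is not counted by a library of polyadenylated 3′ ends, so its induction could not be read from these files. MicroRNAs pair with target RNAs mainly through the seed, bases 2 to 8. The sequences below show the miR-205 seed in capitals and, in the longest annotated 3′ untranslated region (UTR) of each gene, the 7-base complement of the seed in capitals with 10 bases on either side. The miRNA is from RefSeq, and the sites were read from the NCBIM37 genome with the GENCODE M1 annotation. The sites shown are those of Wasl and of the genes that recruit or activate N-WASP.
mmu-miR-205-5p: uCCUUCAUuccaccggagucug
Wasl, chr6:24564183-24564189, minus strand: tcatccaggcATGAAGGctaatccact
Cdc42, chr4:136876327-136876333, minus strand: gatggaactcATGAAGGtgggtggacg
Nck1, chr9:100395637-100395643, minus strand: ccttccaacaATGAAGGttttgtattc
Fnbp1l, chr3:122244190-122244196, minus strand: ttttactgagATGAAGGaagatctcta

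Of the 10 genes, Wasl was the one whose annotated 3′ UTR held ATGAAGG. The UTR was 2480 bases long and the match began at base 2096. None of the 7 Arp2/3 subunits held it, and neither did Diaph1 or Cttn. In the wider list of genes around the complex, matches were not limited to the partners of N-WASP shown above. Gmfg, the formin genes Diaph3, Fmnl3, Fhod3, Fmn1 and Fmn2, and Spire1, Cobl and Lmod3 held ATGAAGG too. Across 20007 genes with an annotated 3′ UTR, 2069 (10.3%) held the same letters in the transcript sequence. A second kind of match, to the seed without its last base and followed by an A (TGAAGGA), was in 2752 (13.8%). None of the 10 genes held TGAAGGA, while Wipf2, described below, Abi1 and others of the wider list did. Cdc42 is the GTPase that opens N-WASP, Nck1 is an adaptor that clusters it and Fnbp1l (Toca-1) is a membrane-binding partner of both. A match describes letters and not a site in use, and the lack of one does not mean that miR-205 is not bound. The study's capture of miR-205 joined to its target RNAs (CLEAR-CLIP) listed Actr3 and Cdc42 among the bound ones. It also listed Arpc1a, the alternative form of Arpc1b.

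In the files, 4545 control barcodes carried 55465594 UMIs and 4264 induced barcodes carried 49733560 UMIs. After the study's own limits on genes and mitochondrial UMIs, 3936 control and 3628 induced cells were kept, with median depths of 12198.5 and 11752.5 UMIs. The libraries shared 11 barcode sequences, 5 of them among kept cells. Cells fell into 22 clusters, which gave 14 populations named from marker UMIs, while 7 clusters stayed unnamed and are called by number. In the hair follicle stem cell (HF-SC)-like population all 6 HF-SC markers were raised. However, 2 inner bulge markers were raised there too, and Krt6a, a gene of the inner bulge layer, was among its leading genes. In the inner bulge-like population 5 HF-SC markers were raised beside 3 inner bulge markers, so these names do not fully separate the layers. In the hair germ-like population all 5 hair germ markers were raised, together with 3 smooth muscle and 2 Merkel cell markers. With 1 mouse per condition there was no test of induction. Intervals are exact 95% intervals that cover counting error, not variation between mice.

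The genes were far from uniform across skin cell types, and the subunits took different shares of the sum in T cell-like and Langerhans and antigen-presenting-like cells than in HF-SC-like cells. The summed level of the 7 subunits in the control library was compared among populations of at least 20 cells in each library. It was lowest in unnamed cluster 1, at 1383 counts per 1000000 UMIs (CPM, 95% interval 1352 to 1415). That cluster was led by Serpinb11 and had Lgr6 among its leading genes. The sum was highest in T cell-like cells, at 4192 CPM (3843 to 4564). Cluster 17, led by the myeloid genes Lyz2 and Cd14, followed at 3230 CPM and Langerhans and antigen-presenting-like cells at 2880 CPM. Cluster 18, a population with T and cytotoxic cell genes, reached 5012 CPM but held 9 control cells. Melanocyte-like cells stood at 2404 CPM.

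Within the epithelium the interfollicular epidermis (IFE) led. IFE basal-like cells held 2317 CPM (2287 to 2348) and IFE suprabasal-like cells 2131 CPM (2082 to 2181). Cycling-like cells, at 1874 CPM, and upper hair follicle (HF)-like cells, at 1788 CPM, came next. Inner bulge-like cells had 1656 CPM, hair germ-like cells 1564 CPM, HF-SC-like cells 1481 CPM and sebaceous gland-like cells 1401 CPM. The IFE basal-like level was 1.56 times the HF-SC-like level (1.52 to 1.61), and the hair germ-like level was 1.06 times the HF-SC-like level (1.01 to 1.10). With the unnamed clusters included, each population from upper HF-like cells down had an interval that overlapped that of the next lower one, so the order of direct neighbours there was not resolved.

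**Figure D1:**
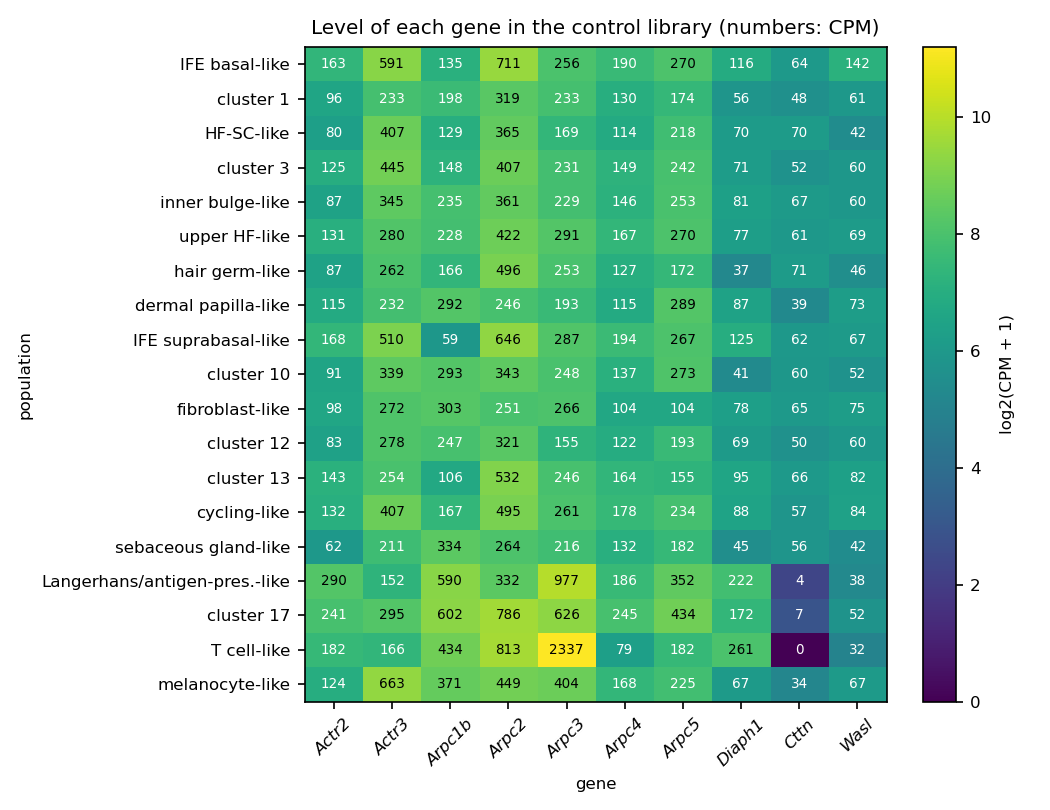
Level of each of the 10 genes (columns) in the 19 populations with at least 20 cells in each library (rows), control library. Colour is log2(CPM + 1) and the printed numbers are CPM. Arpc3 reached 2337 CPM in T cell-like cells, Arpc1b was lowest at 58.8 CPM in IFE suprabasal-like cells, and Cttn was at 0 to 6.51 CPM in the T cell-like, Langerhans and cluster 17 rows.

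Actr3 was lower and Arpc3 higher in T cell-like and Langerhans and antigen-presenting-like cells than in HF-SC-like cells. Actr3 was highest in melanocyte-like (663 CPM) and IFE basal-like (591 CPM) cells and lowest in Langerhans and antigen-presenting-like cells, at 152 CPM. The IFE basal-like level was 3.89 times (3.10 to 4.94) the Langerhans level. Arpc3 stood at 2337 CPM in T cell-like cells and 169 CPM in HF-SC-like cells, 13.9 times apart (12.0 to 16.0). Arpc3 made up 55.7% (51.4 to 60.0) of subunit UMIs in T cell-like cells, 33.9% in Langerhans and antigen-presenting-like cells and 11.4% (10.5 to 12.3) in HF-SC-like cells. Actr3 made up 4.0% (2.5 to 6.0), 5.3% and 27.5% (26.3 to 28.7) of them in the same order. Cluster 17 did not share this pattern in full: its Actr3 level, 295 CPM, lay above the 262 CPM of hair germ-like cells, beside an Arpc3 level of 626 CPM. These shares compare 1 gene between populations; they do not give the stoichiometry of the complex, since capture differs between genes. Induced cells gave the same picture, with Arpc3 at 53.7% in T cell-like cells and 13.5% in HF-SC-like cells.

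Arpc2, at 711 CPM in IFE basal-like and 496 CPM in hair germ-like cells, spanned 3.31-fold over the 19 populations, and Actr3 spanned 4.36-fold. Arpc4, its partner in the core, spanned 3.11-fold, with 10 UMIs behind its lowest value in T cell-like cells. Actr2 spanned 4.71-fold and Arpc1b 10.2-fold. Arpc5 ran from 104 CPM in fibroblast-like cells to 434 CPM in cluster 17. Over the 19 control populations, the log2 level of Actr2 had a Pearson correlation of 0.78 with that of the other subunits summed, while that of Actr3 was -0.26. These correlations describe 19 populations drawn from 1 library and carry no test.

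HF-SC-like and hair germ-like cells differed in subunit use at sums that were nearly equal by these totals and clusters. With totals that left out mitochondrial and ribosomal genes, the hair germ-like sum had a log2 ratio of 0.28 to the HF-SC-like sum in the control library. With cells assigned from their own marker UMIs it was 0.23. In the control library Arpc3 was 1.501 times (1.336 to 1.686) and Arpc2 1.358 times (1.252 to 1.472) as high in hair germ-like as in HF-SC-like cells. Actr3 was lower there, at 0.645 times (0.585 to 0.710) the HF-SC-like level, and Diaph1 at 0.526 times (0.406 to 0.677). Cttn (1.01 times, 0.82 to 1.24) and Wasl (1.09 times, 0.84 to 1.41) had intervals that included equal levels. In the induced library the ratios kept their side of 1 for Arpc3 (1.24), Arpc2 (1.11), Actr3 (0.675) and Diaph1 (0.500). Actr2 did not, at 1.09 times (0.90 to 1.31) in the control and 0.805 times (0.663 to 0.977) in the induced library.

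**Figure D2:**
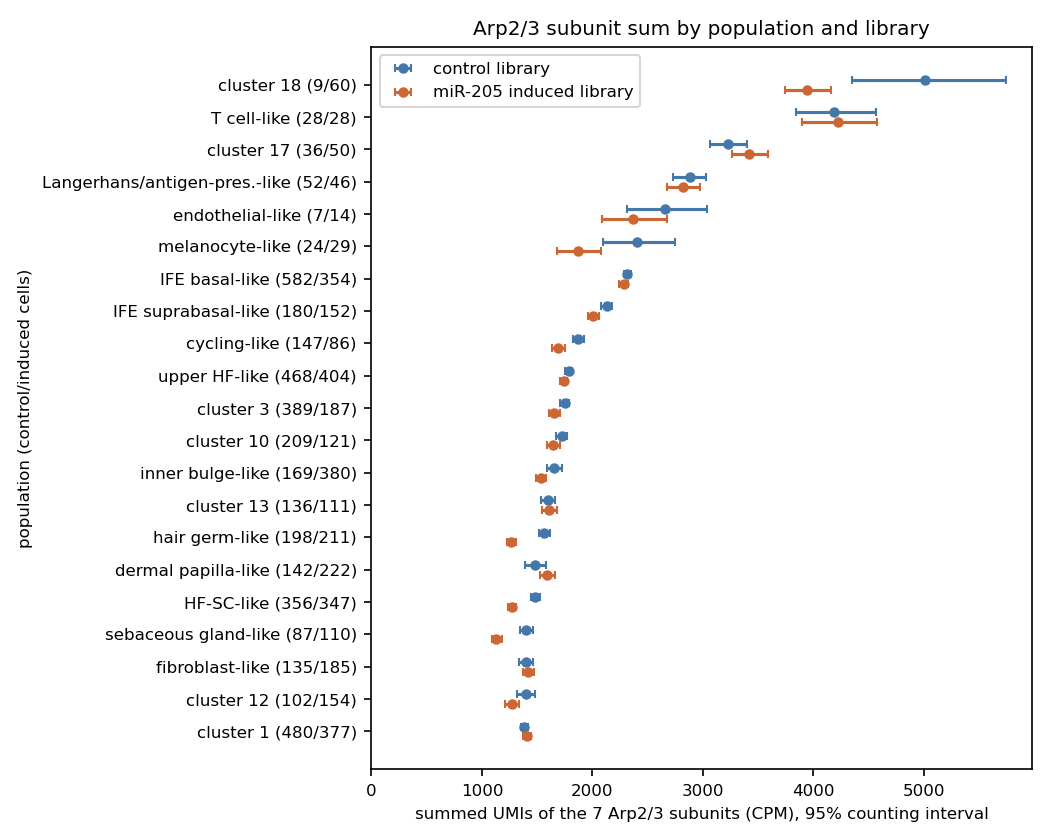
Summed UMIs of the 7 Arp2/3 subunits per 1000000 UMIs (horizontal axis, CPM) in all 21 populations, ordered by the control library. Points are the control and miR-205-induced libraries, bars are exact 95% Poisson intervals for counting error, and the numbers in brackets are control and induced cells. Immune populations lie at the top, and the intervals of the libraries stand apart in, among others, hair germ-like (1564 and 1266 CPM), HF-SC-like (1481 and 1270 CPM), sebaceous gland-like (1401 and 1131 CPM) and melanocyte-like (2404 and 1870 CPM) cells and in cluster 18 (5012 and 3947 CPM).

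The genes beside the complex divided by lineage. Cttn was at 0 UMIs in T cell-like cells of both libraries and at 2 and 3 UMIs in control and induced Langerhans and antigen-presenting-like cells, against 70.6 CPM in hair germ-like and 70.1 CPM in HF-SC-like cells. Hcls1, the haematopoietic relative of cortactin, took the other part: Cttn made up 10.0% (1.2 to 31.7) of the UMIs of the pair in control Langerhans and antigen-presenting-like cells, 9.4% (2.0 to 25.0) in cluster 17 and all 245 UMIs of the pair in HF-SC-like cells. In T cell-like cells the 0 Cttn UMIs stood beside 4 Hcls1 UMIs in the control and 5 in the induced library, counts too small for a share. Wasl, the widely expressed N-WASP, was highest in IFE basal-like cells at 142 CPM, 3.38 times (2.85 to 4.04) its HF-SC-like level of 42.0 CPM. Was, its blood-cell relative, gave 0 UMIs in control IFE basal-like, HF-SC-like and hair germ-like cells, whereas Wasl made up 76.0% (54.9 to 90.6) of the pair in control Langerhans and antigen-presenting-like cells. Diaph1 was highest in T cell-like cells (261 CPM) and lowest in hair germ-like cells (36.9 CPM).

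ARPC1 and ARPC5 each come in a pair of alternative forms, and the share of each form moved with cell type. Arpc1b made up 25.0% (22.0 to 28.2) of Arpc1a and Arpc1b UMIs in control IFE suprabasal-like cells and 47.7% (45.8 to 49.6) in IFE basal-like cells. The share was 58.0% (54.5 to 61.5) in HF-SC-like, 66.6% (62.6 to 70.5) in hair germ-like, 83.3% (77.9 to 87.9) in dermal papilla-like and 91.7% (81.6 to 97.2) in T cell-like cells. With cells assigned from their own marker UMIs, it was nearly equal in HF-SC-like (61.0%) and hair germ-like (61.9%) control cells. The Arpc5 share of Arpc5 and Arpc5l varied less among follicle cells, from 74.5% (72.7 to 76.2) in upper HF-like to 84.9% (82.4 to 87.2) in HF-SC-like cells. It was 74.9% in hair germ-like and 91.9% (87.4 to 95.2) in dermal papilla-like cells. With cells assigned from their own marker UMIs the order of the former and HF-SC-like cells reversed, at 80.8% in hair germ-like and 70.9% in HF-SC-like cells.

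**Figure D3:**
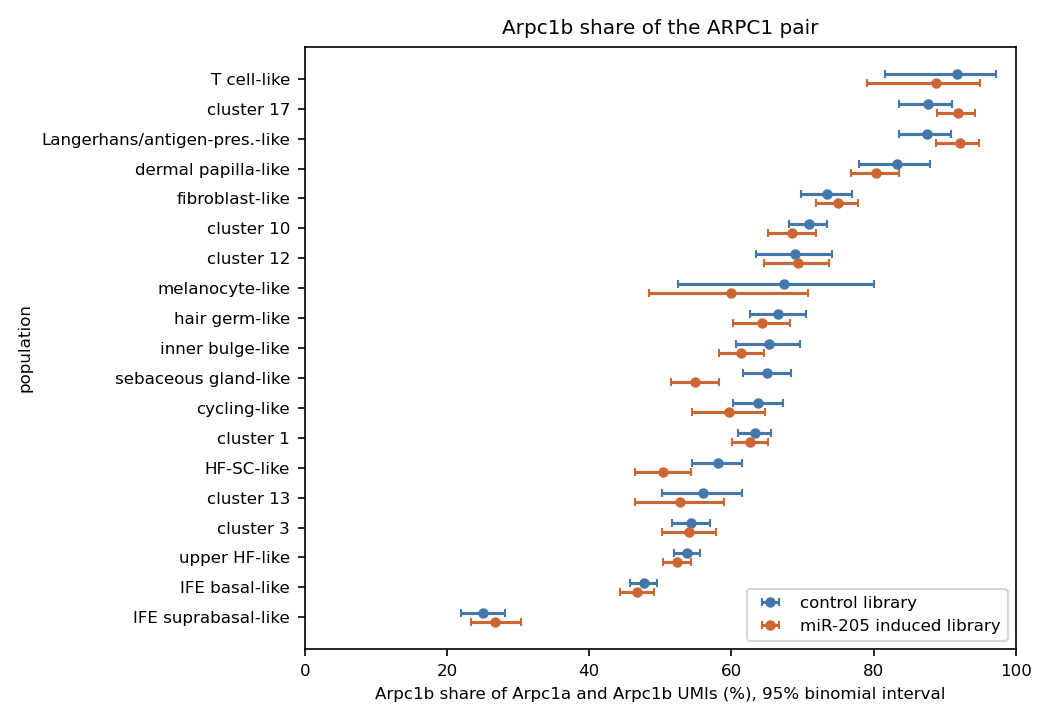
Share of Arpc1b among Arpc1a and Arpc1b UMIs (horizontal axis, percent) in the 19 populations with at least 20 cells in each library. Points are libraries and bars exact 95% binomial intervals. Suprabasal epidermis lies lowest (25.0% in the control) and T cell-like cells highest (91.7%), and the libraries stood apart in sebaceous gland-like (65.0% and 54.8%) and HF-SC-like (58.0% and 50.4%) cells.

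The comparison of libraries asked whether the complex differed where miR-205 was induced. In HF-SC-like cells (356 control, 347 induced) the summed subunits were 1481 CPM in the control and 1270 CPM in the induced library, a difference of -14.2% (-17.6 to -10.7). Actr3 stood at 407 CPM (386 to 429) in the control and 311 CPM (293 to 331) in the induced library, a log2 ratio of -0.39 (-0.50 to -0.27). Control and induced levels of Arpc1b were 129 CPM (117 to 141) and 91.8 CPM (82.0 to 103), with a log2 ratio of -0.49 (-0.70 to -0.28). Those of Arpc5 were 218 CPM (203 to 234) and 160 CPM (147 to 174), with a log2 ratio of -0.45 (-0.61 to -0.29). The intervals of the libraries did not overlap for any of the 3 genes.

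The other 7 genes were nearer to equal in HF-SC-like cells. Log2 ratios were -0.11 (-0.22 to 0.01) for Arpc2, 0.01 (-0.24 to 0.25) for Actr2, 0.02 (-0.14 to 0.19) for Arpc3 and 0.04 (-0.16 to 0.25) for Arpc4. Diaph1 was at -0.06 (-0.33 to 0.20), Cttn at 0.13 (-0.12 to 0.39) and Wasl, which holds the seed match, at 0.10 (-0.23 to 0.44). Counting a gene as lower when the induced level was at least 20% under the control and as higher when it was at least 25% over it, 3 of the 10 genes were lower and none higher, where 13.7% of 5680 genes with at least 100 UMIs were lower and 20.9% higher. The median log2 ratio of the 10 was -0.03, and that of all genes 0.05. The alternative form Arpc1a, at 93.2 and 90.4 CPM, had a log2 ratio of -0.04 (-0.27 to 0.18), and the Arpc1b share was 58.0% in the control and 50.4% (46.4 to 54.4) in the induced library.

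Marker sums did not set HF-SC-like cells apart from inner bulge-like cells. In the control library, summed inner bulge markers stood at 3413 CPM in HF-SC-like and 2077 CPM in inner bulge-like cells. Summed HF-SC markers stood at 12190 CPM in HF-SC-like and 14339 CPM in inner bulge-like cells. HF-SC-like cells were not of 1 kind, and the mix differed between libraries. Clustering at a finer resolution divided them into finer clusters 3 and 14, both led by Krt24. Finer cluster 3, where Krt6a came next, held 73.9% of the control and 60.8% of the induced cells. Finer cluster 14 had the immediate early gene Fos among its leading genes, after Krt24, Sfrp1 and others. In finer cluster 3 the subunit sum was 1618 CPM in the control and 1361 CPM in the induced library, a log2 ratio of -0.25 (-0.32 to -0.18). In finer cluster 14 it was 977 and 1106 CPM, a log2 ratio of 0.18 (0.05 to 0.31). Actr3 was at -0.37 (-0.50 to -0.24) in the former and 0.25 (-0.06 to 0.55) in the latter, and Arpc5 at -0.49 (-0.67 to -0.31) and 0.30 (-0.10 to 0.72). Arpc1b was below 0 in both, at -0.33 (-0.56 to -0.09) and -0.69 (-1.19 to -0.18). With both libraries given the same mix of finer clusters, the HF-SC-like sum had a log2 ratio of -0.14, Arpc1b -0.40 and Arpc5 -0.32, while Actr3, at -0.25, no longer passed the limit. Fos itself stood at 3403 CPM in control and 4608 CPM in induced HF-SC-like cells, and its part in the result was not tested. When cells were instead assigned from their own marker UMIs (493 control and 665 induced HF-SC-like cells), the sum was at -0.08 and all 3 subunits lost their place past the limit, with Actr3 at -0.23, Arpc1b at -0.11 and Arpc5 at 0.04. The 1 gene then lower was Wasl, at -0.40.

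Hair germ-like cells (198 control, 211 induced) had values below 0 for all 7 subunits. The sum was 1564 CPM (1513 to 1616) in the control and 1266 CPM (1224 to 1309) in the induced library, a difference of -19.0% (-22.8 to -15.1). Arpc2, a core subunit, stood at 496 CPM (467 to 526) and 375 CPM (353 to 399), a log2 ratio of -0.40 (-0.52 to -0.28). Actr2, which encodes Arp2, stood at 86.9 CPM (75.2 to 99.9) and 64.6 CPM (55.4 to 74.9), a log2 ratio of -0.43 (-0.73 to -0.13). Among the others, Actr3 fell just short of the 20% limit at -0.32 (-0.49 to -0.15), Arpc1b at -0.27 (-0.48 to -0.06), Arpc3 at -0.25 (-0.42 to -0.08), Arpc5 at -0.21 (-0.42 to -0.01) and Arpc4 at -0.13 (-0.36 to 0.11). Cttn, at 0.18 (-0.12 to 0.48), and Wasl, at 0.22 (-0.15 to 0.60), lay above 0 and Diaph1 at -0.13 (-0.58 to 0.31).

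By these limits 2 of the 10 genes were lower in hair germ-like cells and none higher, where 19.7% of 4729 genes were lower and 18.1% higher, so the share of members past the limit was near that of all genes. The median of the 10 was -0.23 and that of all genes -0.03. Here too the mix differed: finer cluster 10 held 76.3% of control and 53.1% of induced cells, and finer cluster 18, with Fos among its leading genes, the rest. The sum was at -0.18 (-0.25 to -0.10) within finer cluster 10 and at -0.11 (-0.28 to 0.06) within finer cluster 18. With the same mix in both libraries it was at -0.16 and Actr2 at -0.43, while Arpc2, at -0.21, no longer passed the limit and Arpc5, at 0.0024, was no longer below 0. Fos stood at 1362 CPM in control and 3284 CPM in induced hair germ-like cells, and its part in the result was not tested. With cells assigned from their own marker UMIs (253 control and 226 induced hair germ-like cells) the sum was at -0.25. Actr2, at -0.13, and Arpc2, at -0.22, were then no longer past the limit, and Actr3, at -0.38, and Arpc5, at -0.44, were. Summed smooth muscle markers stood at 51.8 CPM in control and 328 CPM in induced hair germ-like cells and Merkel cell markers at 7.0 and 60.9 CPM. Without the 11 control and 30 induced cells that had 3 or more such UMIs, a choice made after seeing the data, the sum was at -0.33.

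**Figure D4:**
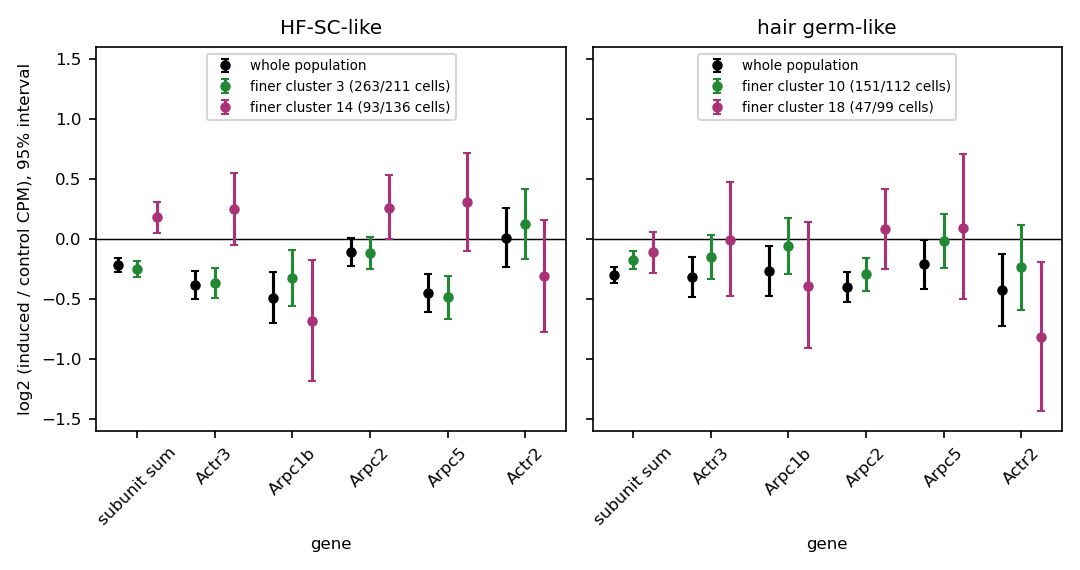
Log2 ratio of induced to control CPM (vertical axis) for the subunit sum and 5 subunits in HF-SC-like (left) and hair germ-like (right) cells. Black is the whole population, green and purple are its finer clusters, and bars are exact 95% intervals for counting error. In HF-SC-like cells the sum was -0.25 in finer cluster 3 and 0.18 in finer cluster 14, while both hair germ-like finer clusters lay below 0 (-0.18 and -0.11).

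Outside these populations the decrease was uneven. In sebaceous gland-like cells (87 control, 110 induced) the sum was 1401 CPM in the control and 1131 CPM in the induced library, a difference of -19.2% (-23.8 to -14.4). Arpc1b stood there at 334 and 222 CPM, a log2 ratio of -0.59 (-0.77 to -0.41), Arpc4 at -0.37 (-0.66 to -0.09) and Arpc2 at the limit with -0.32 (-0.52 to -0.13). These 3 of 10 genes stood against 20.4% lower among all genes. The Arpc1b value was -0.76 (-0.98 to -0.55) in finer cluster 19, led by Akr1c18, and 0.17 (-0.22 to 0.58) in finer cluster 25, led by Hamp2 and Scd1. In cycling-like cells the sum was at -0.15 (-0.21 to -0.09), with Arpc1b (-0.48, -0.72 to -0.25) and Wasl (-0.46, -0.80 to -0.13) lower, 2 of 10 against 19.2% of genes. Inner bulge-like cells had 2 of 10 lower, Actr3 at -0.37 (-0.54 to -0.19) and Wasl at -0.56 (-0.99 to -0.13), against 10.4% of genes. Melanocyte-like cells (24 control, 29 induced) had a sum of 2404 and 1870 CPM, a log2 ratio of -0.36 (-0.61 to -0.11), but 2 of the 10 genes reached 100 UMIs there.

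Elsewhere the subunit sum in the induced library differed from the control by -8.87% (-15.5 to -1.73) in cluster 12, -1.5% (-3.6 to 0.6) in IFE basal-like, -5.7% (-9.0 to -2.4) in IFE suprabasal-like, -2.6% in upper HF-like, 1.5% (-4.1 to 7.5) in fibroblast-like and 7.4% (-0.5 to 16.0) in dermal papilla-like cells. None of the 10 genes was lower by 20% or more in IFE basal-like, IFE suprabasal-like, upper HF-like or fibroblast-like cells, where 9.56%, 14.9%, 7.27% and 10.5% of genes were. The same held for clusters 1, 3, 10 and 13, against 7.77%, 11.2%, 10.5% and 12.6% of genes. The log2 ratio of the sum in HF-SC-like cells minus that in IFE basal-like cells was -0.20 (-0.27 to -0.13), and for hair germ-like cells the same difference was -0.28 (-0.36 to -0.21). HF-SC-like and hair germ-like cells differed from each other by 0.08 (-0.01 to 0.17). Krt14, whose promoter drives the activator, stood at 18350 CPM in control IFE basal-like cells, 9471 CPM in HF-SC-like, 8945 CPM in hair germ-like and 6199 CPM in sebaceous gland-like cells. It stood at 1023 CPM in dermal papilla-like, 635 CPM in fibroblast-like and 342 CPM in inner bulge-like cells. These levels do not show in which cells miR-205 was induced, and their relation to the differences was not tested.

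**Figure D5:**
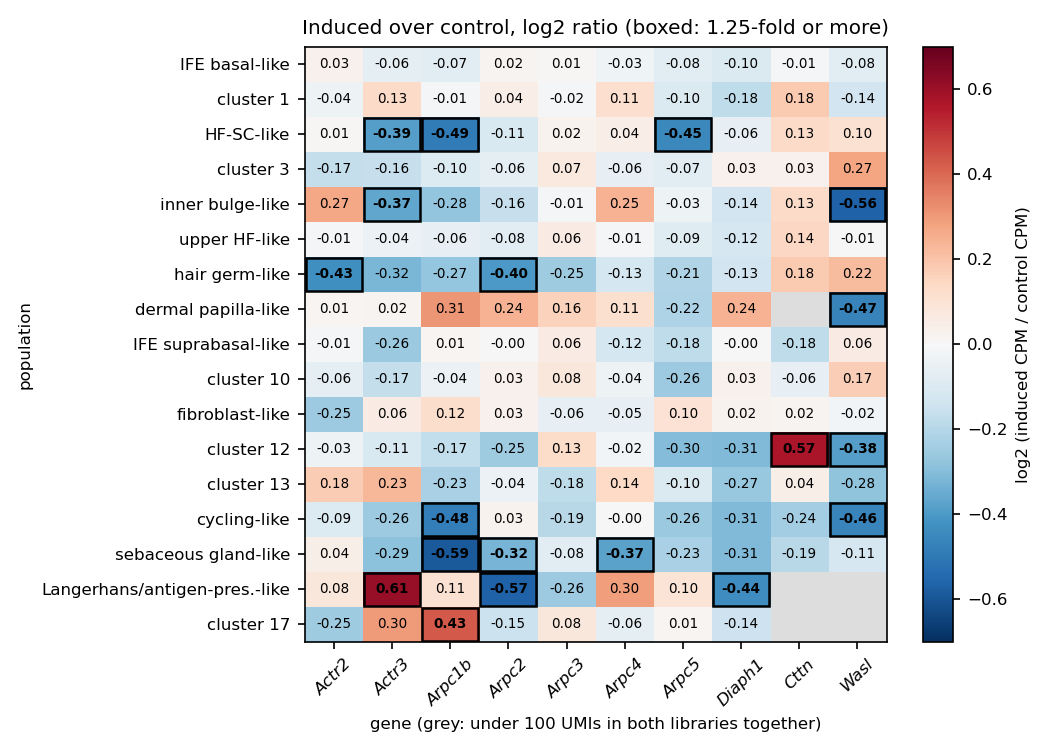
Log2 ratio of induced to control CPM for each of the 10 genes (columns) in the 17 populations where at least 8 of them had 100 UMIs (rows). Blue is lower and red higher in the induced library, boxes mark values at least 20% lower or 25% higher, and grey cells had under 100 UMIs. Decreases past the limit fall on Actr3, Arpc1b and Arpc5 in HF-SC-like cells and on Actr2 and Arpc2 in hair germ-like cells. They also fall on Arpc1b, Arpc2 and Arpc4 in sebaceous gland-like, Arpc1b and Wasl in cycling-like, and Actr3 and Wasl in inner bulge-like cells. Further decreases are those of Wasl in dermal papilla-like cells and cluster 12, and of Arpc2 and Diaph1 in Langerhans and antigen-presenting-like cells. The IFE basal-like and upper HF-like rows hold none.

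Wasl, the one member with a seed match, had values below 0 in 10 of the 15 populations where it reached 100 UMIs. It was past the limit in 4: inner bulge-like and cycling-like cells, dermal papilla-like cells, at 73.4 and 52.96 CPM (log2 ratio -0.47, -1.03 to 0.09), and cluster 12, led by Pthlh and Bdnf, at 60.2 and 46.1 CPM (-0.38, -0.95 to 0.18). The intervals of the last pair included 0. In dermal papilla-like cells it was 1 of 9 genes, against 20.2% lower among all genes, and in cluster 12 it was 1 of 10, against 15.3%. In cluster 12 Cttn was higher, at 49.6 and 73.8 CPM (log2 ratio 0.57, 0.04 to 1.13), where 12.5% of genes were higher. In IFE basal-like cells, which had the most Wasl UMIs, it stood at 142 and 135 CPM (-0.08, -0.20 to 0.05). The Wasl calls also depended on how cells were assigned. From the marker UMIs of each cell, no member was lower in inner bulge-like or dermal papilla-like cells. Wasl was then at -0.40 in HF-SC-like and -0.20 in hair germ-like cells.

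In immune cells genes past the limits lay in both directions, in counts near or below the shares of all genes. In Langerhans and antigen-presenting-like cells (52 control, 46 induced) Arpc2 (332 and 224 CPM; log2 ratio -0.57, -0.93 to -0.21) and Diaph1 (222 and 164 CPM; -0.44, -0.87 to -0.01) were lower, 2 of 8 genes against 23.7% of all. Actr3 was higher, at 152 and 232 CPM (0.61, 0.18 to 1.05), against 18.9% of genes. The 5 cells with most Actr3 UMIs held 27.6% of them in the control and 37.1% in the induced library. For Arpc2 these values were 28.9% and 40.2%, and for Diaph1 27.0% and 32.9%. In cluster 17 Arpc1b was higher, at 602 and 811 CPM (0.43, 0.21 to 0.66), where 18.1% of genes were higher; none of 8 genes was lower, against 26.9%. The subunit sum had intervals that included 0 in both populations.

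Genes around the complex were read from a list of 58, of which 57 matched 1 feature. At least 100 UMIs were reached by 24 of them in HF-SC-like cells and by 24 in hair germ-like cells. The sets were not identical: Diaph2 was counted only in HF-SC-like and Fmnl2 only in hair germ-like cells. In HF-SC-like cells 2 of the 24 were lower and 5 higher, where 13.7% and 20.9% of all genes were. The lower ones were the formin Diaph2 (34.6 and 19.7 CPM; log2 ratio -0.81, -1.26 to -0.37) and the WASP-interacting protein gene Wipf2 (40.9 and 28.7 CPM; -0.51, -0.90 to -0.13). The higher ones were Brk1 (0.52, 0.27 to 0.78) and Wasf2 (0.33, 0.06 to 0.59) of the WAVE complex, which activates Arp2/3 downstream of Rac, Coro1b (0.49, 0.08 to 0.90), a coronin that helps to take branches apart, the formin Inf2 (0.40, 0.11 to 0.70) and the WASH complex gene Washc3 (0.37, -0.16 to 0.91). In hair germ-like cells 3 of the 24 were lower and 3 higher, where 19.7% and 18.1% of all genes were, so in both populations the list's counts were no higher than the shares of all genes. Nck2 (-0.44, -1.03 to 0.14), Cyfip1 (-0.40, -0.79 to -0.01) and Nck1 (-0.38, -0.94 to 0.18) were lower, and Washc3 (0.71, 0.13 to 1.32), Wasf2 (0.39, 0.07 to 0.72) and Coro1b (0.36, -0.09 to 0.83) higher.

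The median of the 24 genes counted in each population was -0.02 in HF-SC-like and -0.06 in hair germ-like cells. Of the seed-match genes shown at the start, Cdc42 stood at 332 and 329 CPM in HF-SC-like cells (-0.01, -0.13 to 0.11) and at 366 and 313 CPM in hair germ-like cells (-0.23, -0.37 to -0.09). Fnbp1l was at -0.15 (-0.37 to 0.07) and 0.18 (-0.06 to 0.42), and Nck1 was at 0.31 (-0.17 to 0.79) in HF-SC-like cells. Rac1, the GTPase upstream of WAVE, was at -0.09 (-0.22 to 0.04) and -0.08 (-0.23 to 0.06).

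Among 2687 genes with a mean of at least 50 CPM, those whose control levels over the 19 populations were most like the subunit sum were Slc38a1 (Pearson r 0.89), the leukocyte tetraspanin gene Cd53 (0.89), Tmem123 (0.89), the G protein subunit gene Gnb1 (0.89) and Atp11b (0.86). Of the 3 genes beside the complex, Diaph1 had an r of 0.81 with the sum, Wasl -0.25 and Cttn -0.85. The populations come from 1 library and the immune populations, with the highest sums, carry much of the spread, so these values are descriptions.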

How the data were processed

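Single-cell RNA-seq was analysed from 1 control and 1 miR-205-inducible library, prepared as 1 pair on the same chip per the study's methods. The authors deposited UMI counts per gene and cell (Cell Ranger, 3.0.1 in the file header; mm10 per the submitters' processing notes), which were not normalized. Cells with over 200 and under 5000 genes and under 10% mitochondrial UMIs were kept, as in the study. Clusters came from Seurat 5.3.0 in R 4.3.3 (2000 variable genes, 30 dimensions, resolution 0.8). A cluster was named when at least 3 markers of a type were raised 2-fold or more and 1 was among its top 10 genes. Counts were summed per cluster and library in Python 3.11.15 (numpy 2.4.6, scipy 1.17.1) and scaled to 1000000 UMIs (CPM). Ratios have exact conditional, levels exact Poisson and shares Clopper-Pearson 95% intervals. UMIs count molecules from 3′ ends and were not scaled by length, so levels are compared between populations and not between genes. A gene was counted in a population when its UMIs in the 2 libraries came to 100 or more, and was called lower at 20% or more under the control and higher at 25% or more over it. With 1 library per condition no p-value was computed. The interval method was tested on simulated data.

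The members, gene lists and limit were chosen with earlier results of these data known. All 10 members are described, with genes of the wider list past these limits in HF-SC-like or hair germ-like cells and the 5 genes most like the subunit sum; Cdc42, Fnbp1l, Rac1 and Arpc1a were named after their values were seen. An automatic doublet caller (scanpy 1.11.5) marked 4 barcodes in each library, which is too few to be relied on, so doublets were not removed. Instead, leaving out the 165 control and 145 induced barcodes with the highest scores was an alternative. Further alternatives were other totals, thinning to 5000 UMIs, a class per cell from marker UMIs, a mean over cells, under 5% mitochondrial UMIs, resolution 1.2 and at least 20 UMIs. Figures were drawn with matplotlib 3.10.9.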

Additional observations from a re-analysis of the deposited data

Results flagged for a closer look

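In each of 5 pairs of populations a gene was at least 20% lower in one and at least 25% higher in the other, and these differences of log2 ratio were not tested. For Actr3, HF-SC-like minus Langerhans and antigen-presenting-like cells was -0.998 and inner bulge-like minus the same cells -0.977. For Arpc1b, the difference from cluster 17, where it was higher, was -0.921 in HF-SC-like, -0.916 in cycling-like and -1.02 in sebaceous gland-like cells. The immune side rested on few cells. In cluster 17 the 5 cells with most Arpc1b UMIs held 43.3% of them in the control and 32.7% in the induced library.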

How the results depend on the processing

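No paired analysis was possible because each condition had 1 library, and for the same reason no replicate could be left out. Of 1897 alternative values over 244 results, 1747 stayed within their counting interval or 1.5 times their count and 148 moved beyond it. Another 2, which had been past the limit, were counted as reversed. Values in the other groups could cross 0 too. With a class per cell from marker UMIs, Wasl went from above 0 to -0.40 in HF-SC-like and -0.20 in hair germ-like cells. The causes were not tested. The subunit sum stayed below 0 in HF-SC-like (-0.27 to -0.08, 9 of 9 alternatives), hair germ-like (-0.34 to -0.16, 10 of 10), sebaceous gland-like (-0.32 to -0.19, 8 of 8) and inner bulge-like cells (-0.13 to -0.06, 7 of 7). It also stayed below 0 under every alternative in upper HF-like, IFE suprabasal-like, cycling-like and Langerhans and antigen-presenting-like cells and in clusters 3, 10 and 12.

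With totals that left out mitochondrial and ribosomal genes, the sum was 0.011 in IFE basal-like cells, 2 members were higher in Langerhans and antigen-presenting-like cells, and the log2 level over HF-SC-like cells was 0.70 for IFE basal-like, 0.28 for hair germ-like and 0.86 for Langerhans and antigen-presenting-like cells. Thinned to 5000 UMIs, the sum was 0.016 in IFE basal-like and -0.031 in dermal papilla-like cells; members lower numbered 0 in dermal papilla-like, 2 in fibroblast-like, 1 in cycling-like and 1 in Langerhans and antigen-presenting-like cells, where 0 were higher, and wider-list genes lower numbered 1 in HF-SC-like and 0 in hair germ-like cells. With a class per cell from marker UMIs, the HF-SC-like sum was -0.079, Actr3, Arpc1b and Arpc5 were not past the limit (Arpc5 changed direction to 0.038) and the 1 member lower was Wasl; members lower numbered 0 in inner bulge-like, dermal papilla-like and Langerhans and antigen-presenting-like cells, where 0 were higher. There the sum was -0.011 in dermal papilla-like and 0.10 in fibroblast-like cells, the log2 level over HF-SC-like cells was 0.49 for IFE basal-like, 0.23 for hair germ-like and 1.12 for T cell-like cells, the Arpc5 share was 70.9% in HF-SC-like and 80.8% in hair germ-like cells, and the hair germ-like Arpc1b share was 61.9%. Without the highest doublet scores, members lower numbered 0 in dermal papilla-like and 1 in Langerhans and antigen-presenting-like cells, where 2 were higher. With a mean over cells, the IFE suprabasal-like sum was -0.029 with 1 member lower, 2 members were higher in Langerhans and antigen-presenting-like cells and 5 wider-list genes were lower in hair germ-like cells. With under 5% mitochondrial UMIs, members lower numbered 1 in IFE suprabasal-like and 5 in cycling-like cells, wider-list genes higher numbered 3 in HF-SC-like cells, 1 was lower and 1 higher in hair germ-like cells, and the HF-SC-like Arpc5 share was 89.9%. At resolution 1.2, 1 member was lower in fibroblast-like cells, the sebaceous gland-like sum was -0.19 and Arpc1b there changed direction to 0.17. With at least 20 UMIs, wider-list genes lower and higher numbered 5 and 8 in HF-SC-like and 6 and 7 in hair germ-like cells. With the same mix of finer clusters, chosen after seeing the data, the sum was -0.14 in HF-SC-like and -0.16 in hair germ-like cells.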
